A study of Mus musculus with 2 samples.

Results

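Fatty acid synthesis and triglyceride assembly were followed here through 38 genes, picked by their role in the pathway from its regulators to lipolysis. Earlier results of these data were known when they were picked. Of the 38 genes, 37 had a probe set that names 1 gene on the array, out of 18194 genes in all, and G6pdx was not analysed here. FLS (fatty liver Shionogi) mice are an inbred strain from the C line of the outbred ddN colony and served as the model of non-alcoholic steatohepatitis (NASH). DS (dd Shionogi) mice are an inbred strain from the A line of that colony and served as the model of simple steatosis. The livers of both strains were taken at 19 weeks of age from mice given the same standard pellet diet and free water. No gene was manipulated and no drug was compared, so FLS against DS is a comparison of strains and their whole genetic backgrounds. The RNA of 3 mice per strain was pooled, and each pool was hybridized to 1 Affymetrix whole-genome mouse array. The hour of collection, the time since the last meal and the sex of the mice are not given in the sources used here.

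Hepatocytes make fatty acids in the cytosol from citrate, which is cleaved to acetyl-CoA, carboxylated to malonyl-CoA and joined into palmitate by a synthase that uses NADPH. Palmitate is then lengthened and desaturated, activated with coenzyme A and attached to glycerol until triglyceride is formed. The transcription factors SREBP-1 and ChREBP switch on many genes of this route after a meal, in response to insulin and to sugar. An excess of triglyceride in hepatocytes is what defines a fatty liver.

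The deposited values were signal intensities on a linear scale, 1 per probe set, and the median over all probe sets was 120.3 for FLS and 125.2 for DS. Where a gene had several probe sets the brightest one on average was read, and a gene counted as measured if either pool exceeded 500. On this rule 31 of the 37 genes were measured. With 1 array per strain there was no replicate, so no difference below has an error or a p-value, and a 2-fold difference is a description of these 2 pools. The ratios of 5076 measured genes had a median of 0.040 on the log2 scale with an SD of 0.49 across genes.

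The hepatocyte markers gave nearly equal signals, since all 10 were measured and their FLS/DS ratios lay between 0.867 and 1.12. Their summed signal was 194370.9 in FLS livers against 189563.7 in DS livers. Not one of 6 adipocyte markers with a probe set exceeded 500, and the highest signal among them was 350.3, with sums of 849.8 and 879.2. Of 6 measured markers of Kupffer cells and macrophages, 5 had a ratio below 1, with a range from 0.554 to 1.43, and the sums over 10 markers were 5590 in FLS livers against 6771 in DS livers. Of 4 measured stellate cell markers, 3 had a ratio above 1, up to 2.78 for Col3a1, and the sums over 8 markers were 11529.5 and 8110. No marker of neutrophils, lymphocytes, bile duct cells or skeletal muscle exceeded 500, the highest signals being 306.9, 231.3, 365.2 and 213.4. The part of other cell types in the differences below was not tested, and in whole liver RNA fewer cells of a type cannot be told apart from less RNA per cell.

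Acly, Acaca, Fasn, Elovl6 and Scd1, which lead from citrate to palmitate, stearate and oleate, each had a lower signal in FLS livers. These genes were put together after their values had been seen. Slc25a1, Acss2 and Pgd, also of acetyl-CoA and NADPH supply, had ratios of 1.00, 1.13 and 1.74. Genes of polyunsaturated fatty acid synthesis, triglyceride assembly and lipolysis lay on both sides of a ratio of 1. Among them, Lpin1, Fitm1, Abhd5 and Mgll had lower ratios than Acly. Of the 31 measured members, 4 had an at least 2-fold lower signal in FLS livers (Elovl6, Srebf1, Fasn and Fitm1), beside 1.77% of all measured genes. In the other direction, 2 members were at least 2-fold higher (Fads1 and Elovl3), beside 2.29% of all measured genes. The other 25 lay between. Because the members were chosen with earlier results of these data known, these counts describe the list and are no test of it. Elovl6 and Fitm1 exceeded 500 in the DS pool alone, so a measured signal in FLS livers was not required of them. With signals above 500 required in both pools, 27 members were left, and Srebf1 and Fasn stayed past the limit, beside 1.11% of genes measured in this way. Of the measured members, 18 (58.1%) had a ratio below 1, beside 43.6% of all measured genes. The median log2 ratio of the measured members was -0.13. With every ratio divided by the Actb ratio, this median was 0.073 and that of all measured genes was 0.25.

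**Figure D1:**
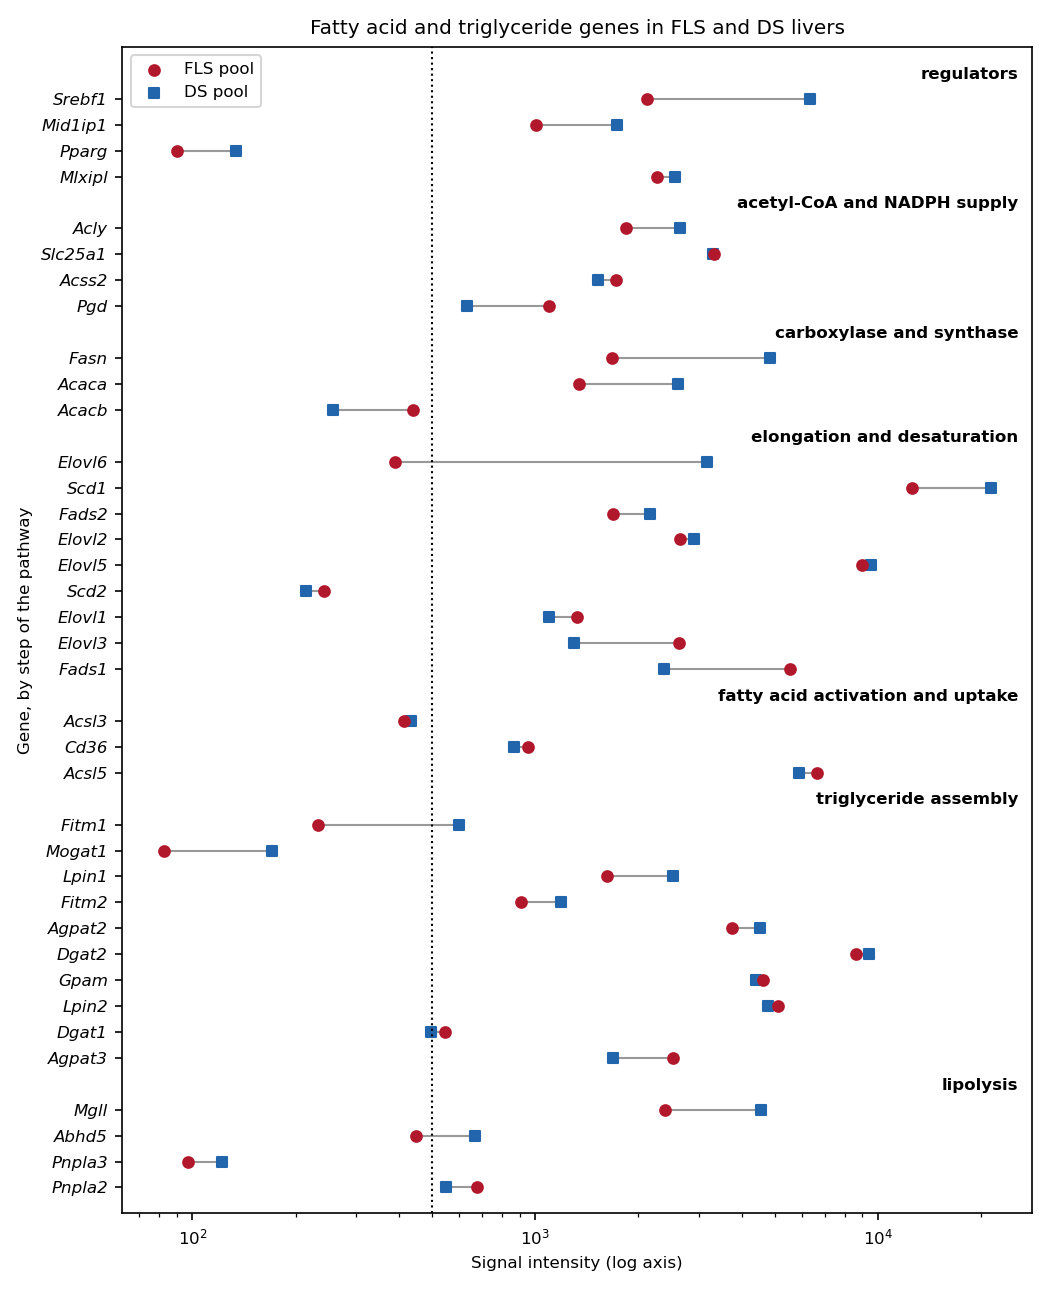
Signal intensity (log axis) of the 37 genes with a probe set with FLS as circles and DS as squares, 1 array each, grouped by step and ordered by FLS/DS ratio within a step. The dotted line marks a signal of 500. The widest gap with the FLS circle to the left is that of Elovl6 (389.2 against 3178), and the widest with the FLS circle to the right is that of Fads1 (5536 against 2371).

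Among the regulators, Srebf1, which encodes SREBP-1, had a signal of 2112 in FLS livers against 6319 in DS livers and was 2.99-fold lower in FLS livers. This was the 40th lowest ratio of the 5076 measured genes, and Srebf1 has 1 probe set, so its isoforms were not separated. Mid1ip1, whose product promotes the assembly of acetyl-CoA carboxylase into active filaments, had a signal of 1006 in FLS livers against 1726 in DS livers, a ratio of 0.583. Mlxipl, which encodes ChREBP, had signals of 2261 and 2548, a ratio of 0.888 that moved to 1.02 after division by Actb. Mlxipl also has 1 probe set, so its isoforms were not separated either. The difference between the pools was thus 2.99-fold for the SREBP-1 gene and 1.13-fold for the ChREBP gene. Pparg, an adipogenic nuclear receptor gene, had signals of 90.4 in FLS livers against 134 in DS livers, both near the array medians, and no ratio is given for it.

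The supply of acetyl-CoA and NADPH held no 2-fold difference among the 4 measured members, whose ratios ran from 0.700 to 1.74. Acly, the citrate cleaving enzyme, had a signal of 1844 in FLS livers against 2636 in DS livers, a ratio of 0.700. Its 3 measured probe sets gave ratios from 0.657 to 0.712. Slc25a1, the carrier that exports citrate from mitochondria, gave 3318 in FLS livers against 3304 in DS livers. Acss2, which makes acetyl-CoA from acetate, had signals of 1718 and 1520, a ratio of 1.13. Both therefore differed little between the pools. Pgd, a dehydrogenase of the pentose phosphate pathway that yields NADPH, pointed the other way, with a signal of 1100.2 in FLS livers against 631.1 in DS livers. Its ratio was 1.74 and became 2.01 after division by Actb. Its 3 measured probe sets, all of a type whose probes may match other transcripts, lay between 1.71 and 1.76, and a dimmer one of another type gave 1.41.

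Both measured enzymes that build palmitate were lower in FLS livers. Acaca, the cytosolic acetyl-CoA carboxylase, had a signal of 1341 in FLS livers against 2616 in DS livers, a ratio of 0.513 just short of a 2-fold difference. Fasn, the fatty acid synthase, had a signal of 1677 in FLS livers against 4822 in DS livers and was 2.88-fold lower in FLS livers. It had the 47th lowest ratio of all measured genes. Acacb, the carboxylase at the mitochondrial surface whose malonyl-CoA restrains fatty acid oxidation, had signals of 440.3 in FLS livers against 257.3 in DS livers. Its ratio of 1.71 was opposite to that of Acaca, but both signals were below 500, and a second probe set had signals of 118.5 and 131, near the array medians.

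Elongases and desaturases held both the lowest and the highest ratio of the members. Elovl6, which lengthens palmitate towards stearate, had a signal of 389.2 in FLS livers against 3178 in DS livers. It was 8.17-fold lower in FLS livers and had the 9th lowest ratio of the 5076 measured genes. The second measured probe set gave 373.3 and 2006, a ratio of 0.186, and the dimmest had signals of 73.2 and 113, near the array medians. Scd1, the main hepatic desaturase that makes oleate from stearate, had a signal of 12582 in FLS livers against 21289 in DS livers, a ratio of 0.591. Its second probe set gave 802.5 and 2642, a ratio of 0.304, so the probe sets of Scd1 were both lower in FLS livers but differed in the size of the difference. Scd2, a related desaturase next but one to Scd1 in the order of protein-coding genes on chromosome 19, had signals of 242.5 in FLS livers against 215.1 in DS livers and was not measured.

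In the polyunsaturated branch, Fads1 was higher in FLS livers, and Fads2, Elovl5 and Elovl2 had ratios below 1. Fads1 and Fads2 are neighbouring genes on chromosome 19, with 0 protein-coding genes between them, and act one after the other on the same essential fatty acids. Fads1 had a signal of 5536 in FLS livers against 2371 in DS livers and was 2.34-fold higher in FLS livers. Fads2 had signals of 1682 and 2161, a ratio of 0.778, and its second measured probe set gave 0.668. The neighbours thus differed in direction, with Fads1 resting on 1 measured probe set. Over the scalings tried Fads1 lay between 2.32 and 2.69 and Fads2 between 0.769 and 0.897. Division by Actb, the largest of these shifts, was too small to carry either across 1. Elovl5, which lengthens polyunsaturated fatty acids, had signals of 8979 and 9517, a ratio of 0.943 that became 1.09 after division by Actb. Elovl2, which acts on the longer of these chains, had signals of 2644 and 2898, a ratio of 0.912 that became 1.05. Neither gene therefore had a settled direction. Elovl3, an elongase of saturated and monounsaturated very long chains, had a signal of 2618 in FLS livers against 1298 in DS livers, a ratio of 2.02 just past a 2-fold difference and 1.99 after removal of a loess trend. Elovl1, another elongase of very long chains, had signals of 1320.5 and 1095, a ratio of 1.21 on a probe set with the suffix of probes that may match other transcripts and of 0.962 on the measured one without it.

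**Figure D2:**
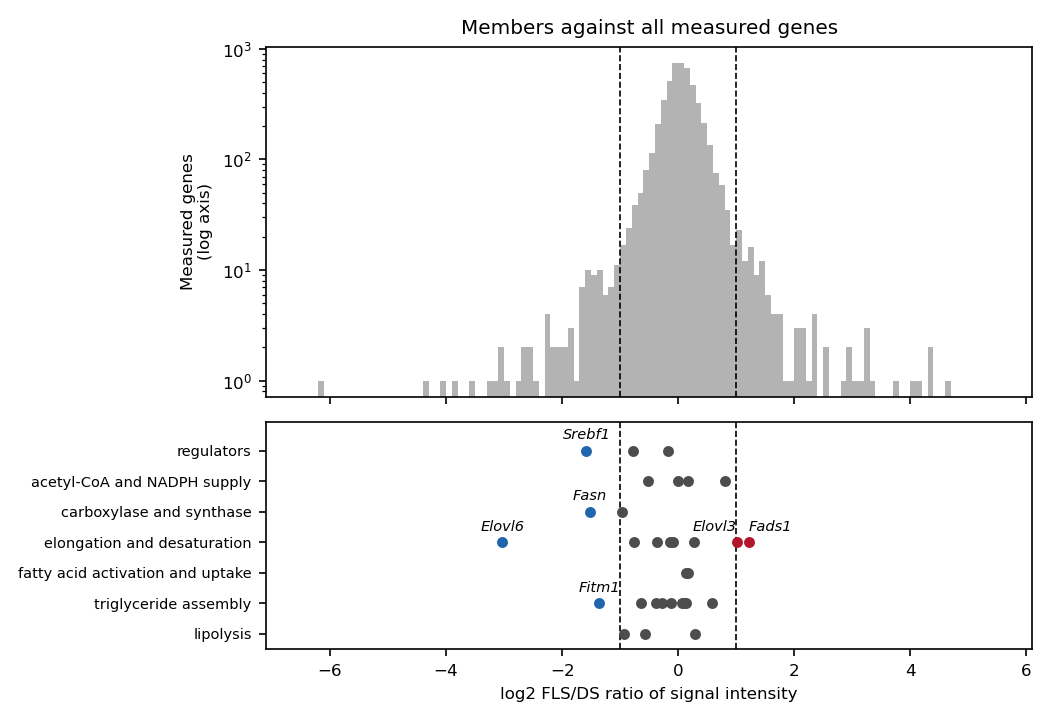
Upper panel, number of measured genes (log axis) by log2 FLS/DS ratio of signal intensity, 5076 genes in bins of 0.1. Lower panel, the 31 measured members on the same axis, 1 row per step, with dashed lines at 2-fold differences and names for the members beyond them. Elovl6 (-3.03) stands far to the left of the other members, and Fads1 (1.22) and Elovl3 (1.01) are the only members beyond the right line.

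No promoter sequence of FLS or DS mice was at hand. The reference genome promoters of Srebf1, Fasn and Elovl6, the 3 measured members with the lowest ratios, are printed here. Each is the 250 bases before a RefSeq transcription start in GRCm38.p6, 5′ to 3′ on the gene's strand, and Srebf1 has 3 such starts. Capitals mark matches on either strand to CCAAT, the box bound by NF-Y, or to GGGCGG, the GC box bound by Sp1, 2 factors known as partners of SREBPs. No match was found in them to the exact letters TCACNCCAC, a form of the sterol regulatory element, or to the E-box CACGTG. Variants of these elements were not searched for, so their absence from these promoters is not shown.
Srebf1, chr11:60210472-60210721, minus strand: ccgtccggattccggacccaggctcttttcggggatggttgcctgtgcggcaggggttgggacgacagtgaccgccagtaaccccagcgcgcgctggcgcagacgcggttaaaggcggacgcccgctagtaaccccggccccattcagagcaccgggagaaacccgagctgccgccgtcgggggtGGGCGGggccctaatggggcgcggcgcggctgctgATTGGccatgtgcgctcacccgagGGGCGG
Srebf1, chr11:60220628-60220877, minus strand: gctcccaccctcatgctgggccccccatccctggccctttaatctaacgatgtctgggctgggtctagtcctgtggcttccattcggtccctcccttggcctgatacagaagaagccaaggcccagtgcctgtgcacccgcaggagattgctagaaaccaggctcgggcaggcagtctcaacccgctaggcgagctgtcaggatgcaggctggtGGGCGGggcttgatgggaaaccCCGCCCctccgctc
Srebf1, chr11:60222582-60222831, minus strand: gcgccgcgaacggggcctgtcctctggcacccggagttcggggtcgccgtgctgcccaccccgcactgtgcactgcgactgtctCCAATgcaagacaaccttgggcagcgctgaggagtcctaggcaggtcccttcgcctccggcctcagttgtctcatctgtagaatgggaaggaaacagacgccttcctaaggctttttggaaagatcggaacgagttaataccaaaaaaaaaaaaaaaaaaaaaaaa
Fasn, chr11:120824548-120824797, minus strand: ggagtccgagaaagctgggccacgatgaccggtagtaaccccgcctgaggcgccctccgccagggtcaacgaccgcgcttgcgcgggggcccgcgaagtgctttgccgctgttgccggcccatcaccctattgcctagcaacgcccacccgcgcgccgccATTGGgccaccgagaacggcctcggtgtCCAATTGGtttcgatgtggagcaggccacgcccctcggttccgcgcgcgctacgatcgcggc
Elovl6, chr3:129532136-129532385, plus strand: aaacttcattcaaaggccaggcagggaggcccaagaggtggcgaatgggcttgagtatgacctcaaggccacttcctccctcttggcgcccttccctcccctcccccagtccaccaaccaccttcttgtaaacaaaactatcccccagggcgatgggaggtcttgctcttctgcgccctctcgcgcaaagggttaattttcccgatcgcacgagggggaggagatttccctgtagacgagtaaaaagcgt

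The Fasn window holds 3 CCAAT boxes, of which 2 overlap on opposite strands, and 0 GC boxes. The Srebf1 windows, in the order printed, hold 1, 0 and 1 CCAAT boxes and 2, 2 and 0 GC boxes, and the Elovl6 window holds neither. Reference promoter sequence was on hand for 32 members with 44 starts. A CCAAT box lay in 40.9% of these 44 windows and in 33.8% of all 32851 windows of the same length, which include those of noncoding genes. For the GC box the shares were 59.1% and 32.7%, and for the E-box 11.4% and 6.02%. The sterol regulatory element lay in 1.05% of all windows and in 1 of the 44, at the downstream start of Mlxipl. A match is a description of the letters and not a site of binding, and the lack of one does not show that an element is absent.

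The 2 measured genes of uptake and activation differed by at most 1.13-fold. Acsl5, an acyl-CoA synthetase, had a signal of 6635 in FLS livers against 5873 in DS livers, a ratio of 1.13. Cd36, a fatty acid translocase, had signals of 950.9 and 869.3, a ratio of 1.09, and 0.916 on its second measured probe set. Acsl3, a synthetase of the endoplasmic reticulum and lipid droplets, had signals of 414 and 433 and was not measured.

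Of the 9 measured genes of triglyceride assembly and storage, Lpin1 and Fitm1 differed by more than 1.5-fold between the pools. Gpam, the mitochondrial acyltransferase that starts the route, had a signal of 4602 in FLS livers against 4403 in DS livers, a ratio of 1.05. Agpat2, an acyltransferase of the next step, had signals of 3741 and 4516.5, a ratio of 0.828. Agpat3, another one, had signals of 2521 and 1688, a ratio of 1.49, but its other 2 measured probe sets gave 1.05 and 1.17. The phosphatidate phosphatases differed from each other. Lpin1, which also acts as a transcriptional coactivator, had a signal of 1618 in FLS livers against 2522 in DS livers, a ratio of 0.642, with 0.673 on its second probe set. Lpin2 had signals of 5103 and 4783, a ratio of 1.07. Dgat1 and Dgat2 encode the enzymes of the last acylation. Dgat1 had signals of 546.4 and 497.5, close to the limit of 500, and a ratio of 1.10. Dgat2 had signals of 8596 and 9390.3, a ratio of 0.915 that became 1.06 after division by Actb, and its second measured probe set gave 0.778. Mogat1, which acylates monoacylglycerol, had signals of 82.6 and 171, both below 200, and no ratio is given for it.

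Fitm1 and Fitm2 encode membrane proteins that pass triglyceride from the endoplasmic reticulum to lipid droplets. Fitm1, best known from skeletal muscle, had a signal of 233 in FLS livers against 597.8 in DS livers and was 2.57-fold lower in FLS livers. The 6 skeletal muscle markers were all below 500 in both pools, with summed signals of 752.9 and 765.2, and the part of muscle RNA in this difference was not tested. Fitm2, the form found in most tissues, had a signal of 906.1 in FLS livers against 1186 in DS livers, a ratio of 0.764.

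The 3 measured genes of lipolysis had ratios from 0.522 to 1.23. Mgll, the lipase that completes the breakdown by hydrolysing monoacylglycerol, had a signal of 2383 in FLS livers against 4567 in DS livers, a ratio of 0.522. Its 3 measured probe sets were all lower in FLS livers, at 0.522, 0.578 and 0.402, so a 2-fold difference depended on the probe set. Pnpla2, the triglyceride lipase ATGL, had signals of 675.9 and 549.1, a ratio of 1.23. Abhd5, the coactivator of ATGL, had signals of 450.1 in FLS livers against 667.3 in DS livers, a ratio of 0.675. This was its 1 measured probe set, above 500 in the DS pool alone, and Pnpla2 also rests on 1 measured probe set. The dimmer probe sets of Abhd5, not above 500 in either pool, gave 0.940 (signals 367.7 and 391.2) and 1.475 (signals 209.6 and 142.1). Only the dimmest went in the direction of the lipase that Abhd5 activates, so this comparison depended on the probe set. Pnpla3, whose human counterpart is known for a variant tied to fatty liver, had signals of 96.9 and 122 and was near the array medians in both pools.

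**Figure D3:**
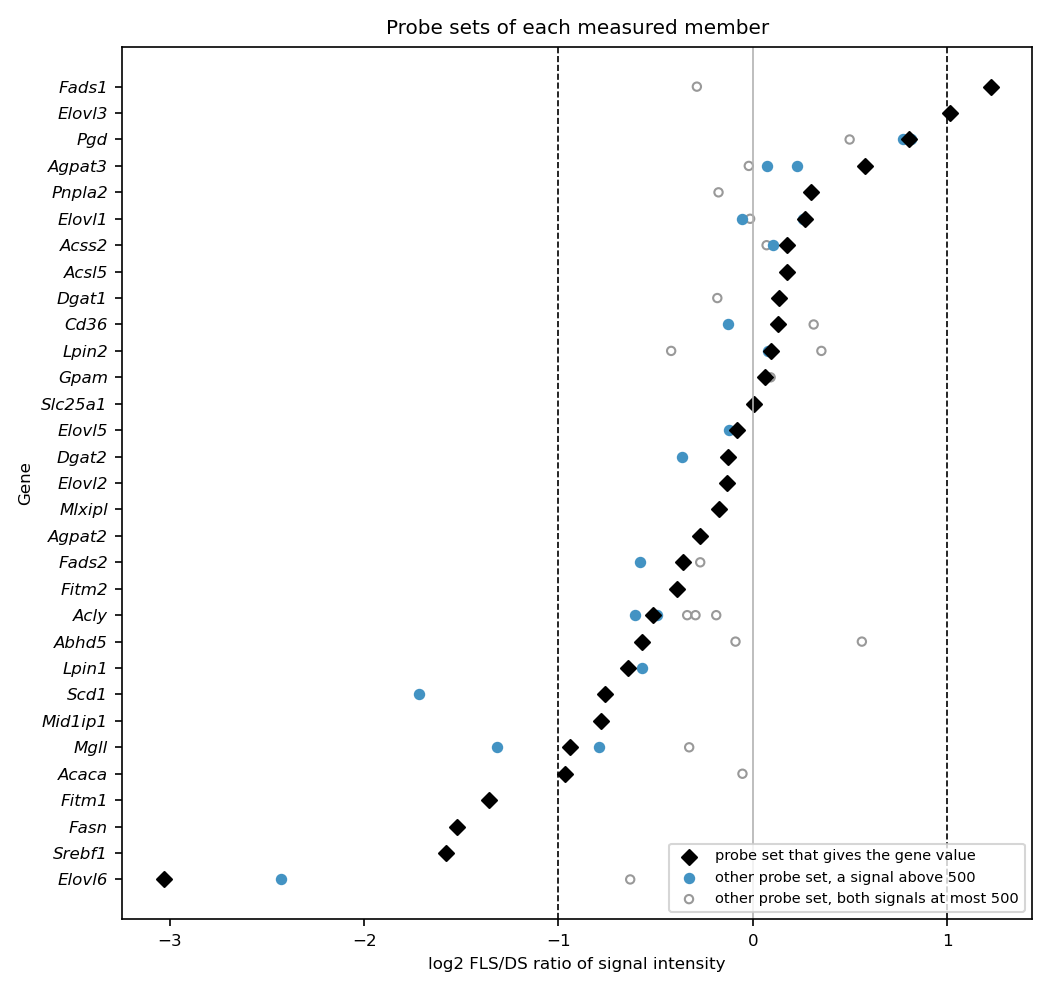
log2 FLS/DS ratio of every probe set of the 31 measured members, ordered by the value of the gene (diamonds), with other probe sets above 500 in either pool as filled circles and dimmer ones as open circles. Dashed lines mark 2-fold differences. Both measured probe sets of Elovl6 lie beyond the left line, and the second probe set of Scd1 (-1.72) and 1 of Mgll (-1.32) lie beyond it while the diamonds of these genes lie to its right.

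More than 1 measured probe set was present for 14 members. In 12 of these all measured probe sets lay on the same side of 1, and the exceptions were Elovl1 and Cd36. Srebf1, Fasn, Fitm1 and Elovl3 each rest on 1 probe set, and Fads1 on 1 measured probe set, since its other one had signals of 126 and 154. No probe sequences were at hand, so the part of sequence differences between the strains under the probes was not tested.

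Likewise with earlier results known, other genes of the pathway, 105 in all outside the 38, were set beside them by role. Of these, 99 had a probe set and 70 were measured, and a 2-fold limit was passed by 2 of them with lower and by 1 with higher signals in FLS livers, beside 1.77% and 2.29% of all measured genes. The median log2 ratio of these 70 genes was 0.022. The lower genes were Me1 and Thrsp. Me1, the cytosolic malic enzyme and a source of NADPH, had a signal of 268.4 in FLS livers against 3159 in DS livers and was 11.8-fold lower in FLS livers, with a ratio of 0.108 on its second probe set. It exceeded 500 in the DS pool alone and was not counted when both pools had to exceed 500. Thrsp, a lipogenic protein related to the product of Mid1ip1, had signals of 5906 and 15952, a ratio of 0.370, with 0.234 on its second measured probe set. The higher gene was Angptl8, a feeding-induced regulator of lipoprotein lipase, with signals of 1462.2 in FLS livers against 605.6 in DS livers, a ratio of 2.41. The paper lists the same signals under the name Gm6484 among its candidate NASH biomarkers.

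Among the other regulators, the SREBP escort gene Scap had a ratio of 1.29, and the retention factor genes Insig1 and Insig2 had ratios of 0.980 and 0.995. The oxysterol receptor gene Nr1h3 gave 0.992, and Nr0b2, a bile acid-induced corepressor, gave 1.97, just short of a 2-fold difference and past it after centring on the median ratio or division by Actb. Sp1 gave 1.33. Of the 11 measured genes of acetyl-CoA and NADPH supply, 10 lay between 2-fold limits, the largest other differences being those of Cs, the mitochondrial citrate synthase, at 1.46 and Idh2 at 1.45. Pklr, the liver pyruvate kinase and a target of ChREBP, had signals of 857.6 in FLS livers against 1691 in DS livers, a ratio of 0.507, and its other 2 measured probe sets gave 0.363 and 0.464. It passed the 2-fold limit under quantile normalization, after removal of a loess trend and with the median over measured probe sets. Khk, the ketohexokinase, had a ratio of 0.612. Txnip, also a target of ChREBP, gave 1.05, and the 6 measured genes of this sugar-responsive list lay on both sides of 1.

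The enzymes that complete each elongation cycle, a reduction, a dehydration and a further reduction, held no 2-fold difference. Hsd17b12 had the lowest ratio among the 10 measured genes of that list, at 0.700, and Hacd2 the highest, at 1.20, while Tecr gave 1.01. The second measured probe set of Hsd17b12, nearly as bright, gave 0.893. All 5 measured genes of mitochondrial fatty acid synthesis, a separate route, had ratios between 0.911 and 1.22, from the ketoacyl reductase subunit gene Hsd17b8 to the synthase gene Oxsm. Among the binding and transport genes, Fabp2 had the lowest ratio at 0.527 and Acsl4 followed at 0.645. Fabp5 had the highest ratio, with signals of 1598 and 1066, whereas Fabp1, the main fatty acid binding protein of hepatocytes, gave 1.00. In triglyceride assembly, Gpat4, the acyltransferase of the endoplasmic reticulum, had a signal of 586.3 in FLS livers against 1031 in DS livers, a ratio of 0.569, and Tm6sf2, which acts in lipoprotein loading, gave 1.54. Of the lipolysis genes, the carboxylesterase genes Ces1d and Ces1f had ratios of 0.621 and 0.745 and Ces1g of the same list had the highest, at 1.33, while G0s2, an inhibitor of ATGL, gave 0.828.

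**Figure D4:**
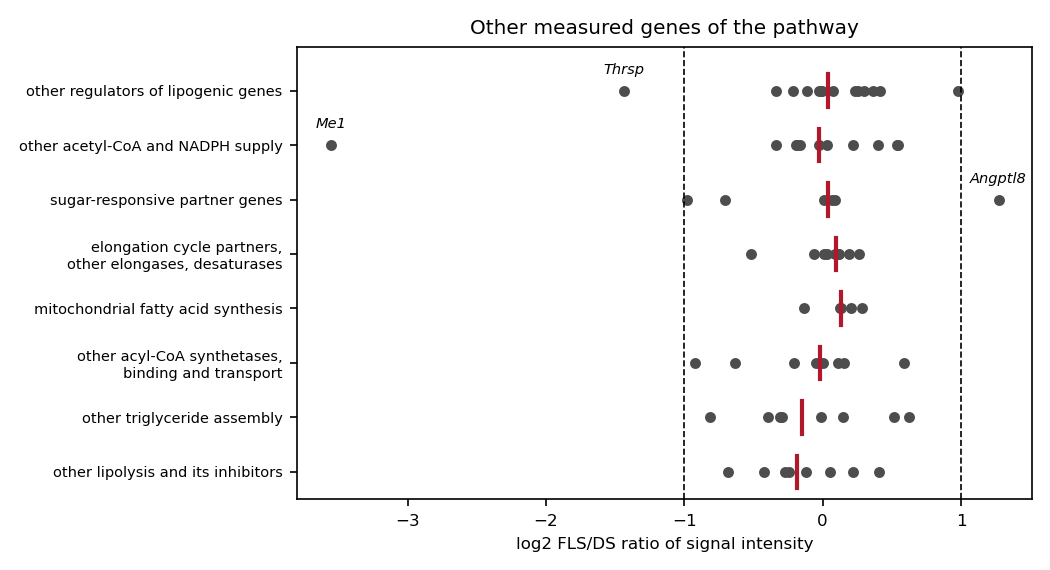
log2 FLS/DS ratio of the 70 measured genes of the pathway outside the members, 1 row per role, with the median of each row as a vertical bar and dashed lines at 2-fold differences. Me1 (-3.56) and Thrsp (-1.43) lie beyond the left line and Angptl8 (1.27) beyond the right one, and the medians of the rows run from -0.18 to 0.13.

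In the order of the route, the ratios were 0.700 for Acly, 0.513 for Acaca, 0.348 for Fasn, 0.122 for Elovl6 and 0.591 for Scd1. These 5 genes were set in a row after their values had been seen. All of them stayed below 1 under the 7 other settings of scaling, offset and probe set choice. Over the scalings the highest ratios were 0.807, 0.591, 0.401, 0.141 and 0.681. Division by Actb raised log2 ratios by 0.21, too little to carry any of these genes across 1, and centring and an offset could not do so either. Staying below 1 under these settings is therefore no further support.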

How the data were processed

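Liver RNA of 3 FLS and of 3 DS mice was pooled by strain and measured on 2 Affymetrix arrays, 1 per strain. The authors computed the deposited signal intensities, on a linear scale, from the perfect-match probes by a model-based expression index and normalized them. The submitters' processing notes name affy, and no source used here gives the scaling between arrays. Of 45101 probe sets, 34958 were annotated to 1 symbol, 932 to several and 9211 to none, and only the first were used, with symbols updated through RefSeq (GRCm38.p6). The FLS/DS ratio was taken without offset from each gene's brightest probe set on average. A gene was measured with either signal above 500, and no fold was given for a gene with both signals below 200, nor for a marker list without a measured gene. Uptake and activation genes were set apart from the other steps. Every member was named, with other pathway genes past 2-fold and those with the largest differences in each list, and Scap, Insig1, Insig2, Nr1h3, Txnip, Tecr, Hsd17b8, Fabp1, Fabp5, Ces1g and G0s2 were added for their roles or as the ends of a range after their values were seen. The members and lists were chosen with earlier results of these data known. Motifs were searched on both strands of RefSeq promoter windows. The calculations were tested on simulated data, and no test across samples was possible. The number of arrays limits the precision. Tables were handled with pandas 2.3.3 and numpy 2.4.6 in Python 3.11.15, loess was from statsmodels 0.14.6 and figures from matplotlib 3.10.9. Alternatives covered the scaling of the arrays, an offset, the choice of probe set and the signal and fold limits.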

Additional observations from a re-analysis of the deposited data

How the results depend on the processing

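A shift above 0.22 in log2 ratio counted as a move, which is the SD among measured probe sets within a gene, pooled across 1424 genes, and so did a change of a count by more than 1.5 times. Of 215 recomputed ratios of members, 4 moved, all with another choice of probe set, and division by Actb and centring shift all ratios by less than this limit, so they could move none. In all, 6 members, all within 1.21-fold of 1, crossed 1 in some setting. Srebf1, Fasn, Elovl6 and Fitm1 stayed at least 2-fold lower under quantile normalization, centring, loess, division by Actb, an offset of 50 and without probe sets of the suffixes _x_at and _s_at. Scd1 joined them with the median over measured probe sets. Signals above 500 in both pools left 2 members lower and 1 other pathway gene lower (Thrsp), beside 1.11% of genes measured in this way. A signal limit of 1000 left 3 members lower, without Fitm1, beside 2.24% of genes past that limit. A limit of 1.5-fold gave 9 members lower and 3 higher, and 8 other genes lower and 3 higher, beside 4.49% lower and 6.11% higher among all measured genes. A limit of 3-fold left 1 member lower (Elovl6) and 1 other gene lower (Me1), beside 0.768% of all measured genes. At this limit 0 members and 0 other genes were higher, beside 0.788%. Loess and the offset each left 1 member higher (Fads1), beside 2.17% and 1.97% of all measured genes. Centring and division by Actb each gave 2 other genes higher, the second being Nr0b2, beside 2.44% and 3.37% of all measured genes. Pklr made 3 other genes lower under quantile normalization, loess and the median over probe sets, beside 1.87%, 1.85% and 1.85%. The median log2 ratio of the members was 0.073 after division by Actb, which raised every log2 ratio by 0.21 and the share of higher genes among all 2-fold different ones from 56.3% to 70.4%, and it was negative under the other settings. No paired analysis was possible because each strain had 1 array. Signals near the array medians limit what can be said of Pparg, Mogat1 and Pnpla3.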
